A study of Mus musculus with 6 samples.

Results

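The genes described here encode SR proteins and heterogeneous nuclear ribonucleoproteins (hnRNPs), the main families of RNA-binding proteins that act for and against the use of splice sites. They were chosen by symbol: Srsf genes, Hnrnp genes, Tra2a and Tra2b, without symbols marked as pseudogenes. The rule found 33 genes among the 55367 rows of the table, 13 for SR proteins and 20 for hnRNPs. RNA sequencing compared LLC cells, a wild-type mouse line from a Lewis lung carcinoma, kept for 46 h with 5 µM STM2457 or with the solvent DMSO alone. There were 3 libraries per group. STM2457 inhibits METTL3, which methylates adenosines of messenger RNA to N6-methyladenosine (m6A). Separate cultures are not named in the labels. The p-values therefore measure the spread between these 6 libraries, which may be technical.

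SR proteins carry RNA recognition motifs and a tail rich in arginine-serine repeats. Bound to an exon, they recruit the spliceosome to its borders, and several also escort finished messages out of the nucleus. hnRNPs coat newly made transcripts through RNA recognition motifs, KH domains or glycine-rich stretches, and many of them block nearby splice sites. Both families regulate their own messages, often by including an exon with a premature stop, so that the transcript is degraded.

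Reads were recovered from the deposited log2 values, as described under the processing of the data, and are less exact at high counts. In genes they summed to 17671686 to 17917210 per library. Counting error is small for all members but Srsf12, Srsf4 and Hnrnph3. Defining epithelial markers were near absent in this line, with Epcam and Cdh1 listed at 0 and the sum of 5 epithelial genes at 11.9 to 14.0 normalised reads in DMSO and 0 to 9.91 after STM2457. The mesenchymal genes Vim, Fn1 and Cdh2 together reached 92461 to 94229 normalised reads in DMSO and 74177 to 75733 after STM2457. Of these 3 genes 2 fell and 1 rose. Vim fell from a mean of 52900 to 46200 and Fn1 from 39900 to 28400, while Cdh2 rose from 494 to 650. The sum of 6 leukocyte genes was 95.3 to 113 in DMSO and 87.2 to 109 after STM2457. Nearly all of it was Cd68, a lysosomal protein of macrophages, at 101 and 96.6, while Adgre1 and Cd3e were listed at 0 and Ptprc averaged under 1 read. The sums over 3 endothelial and 4 lung epithelial genes reached at most 8.94 and 3.0 normalised reads. Of 5 fibroblast genes 2 fell, and their sum was 301 to 337 in DMSO and 214 to 226 after STM2457; its part in the results was not tested. Mettl3 averaged 537 ± 66.0 normalised reads in the DMSO group and 488 ± 32.5 in the STM2457 group (SD, n = 3), and did not pass the test (limma adjusted p = 0.15).

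The low-value filter, a mean deposited log2 value of at least the log2 of 10, left 32 of the 33 genes for testing. After STM2457, 6 of 12 SR protein genes rose and 2 fell, while 5 of 20 hnRNP genes rose and 7 fell (limma, adjusted p under 0.05 over 12618 genes). Across all tested genes 30.7% were called higher and 25.7% lower. For all members together the shares, 34.4% higher and 28.1% lower, lay near that background. All changes were small: folds ran from 0.762 for Hnrnph3 to 1.33 for Srsf6. The SR median was 1.07-fold and the hnRNP median 0.991-fold, against 1.01-fold over all tested genes. When each library was instead centred on its upper quartile, 5 SR genes were higher and 2 lower, 4 hnRNP genes were higher and 9 lower, and the split over all genes moved from 3868 higher and 3240 lower to 2819 and 4814. No called member changed sign under that scaling.

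The sequences below belong to the members with the largest rise and the largest fall in each family, Srsf6 and Srsf5 among SR genes and Hnrnpf and Hnrnph3 among hnRNP genes. They are shown because these genes mark the range of the response. First come the 250 bases before the start site listed first in RefSeq (GRCm38.p6), with capitals for matches to 5 motifs searched on both strands: the E-box CACGTG, the CCAAT box, the TATA box searched as TATAAA, the GC box searched as GGGCGG, and the cyclic AMP response element TGACGTCA. Their positions are chr2:162931258-162931507 on the plus strand for Srsf6 and chr12:80945249-80945498 on the plus strand for Srsf5. For Hnrnpf the window is chr6:117900090-117900339 on the plus strand, and for Hnrnph3 chr10:63023850-63024099 on the minus strand. The annotations differ in where genes start. In GENCODE M21 Hnrnph3 begins at 63024217 on the minus strand, so its whole window lies inside the annotated gene. Hnrnpf begins there at 117900324, so the end of its window does too.
Srsf6: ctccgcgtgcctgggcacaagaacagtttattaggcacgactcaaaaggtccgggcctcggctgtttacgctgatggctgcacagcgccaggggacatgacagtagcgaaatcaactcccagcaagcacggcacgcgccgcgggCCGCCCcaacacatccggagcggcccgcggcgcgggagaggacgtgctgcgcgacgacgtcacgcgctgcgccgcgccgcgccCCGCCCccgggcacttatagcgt
Srsf5: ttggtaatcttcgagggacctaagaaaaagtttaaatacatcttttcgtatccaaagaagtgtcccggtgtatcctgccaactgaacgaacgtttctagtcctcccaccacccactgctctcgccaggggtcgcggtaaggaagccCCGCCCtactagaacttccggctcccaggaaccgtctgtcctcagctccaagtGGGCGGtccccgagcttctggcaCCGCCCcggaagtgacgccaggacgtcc
Hnrnpf: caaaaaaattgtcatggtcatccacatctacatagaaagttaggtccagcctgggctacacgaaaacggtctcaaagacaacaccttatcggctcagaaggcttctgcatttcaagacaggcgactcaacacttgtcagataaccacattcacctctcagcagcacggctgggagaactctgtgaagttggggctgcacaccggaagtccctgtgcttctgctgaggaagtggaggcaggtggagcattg
Hnrnph3: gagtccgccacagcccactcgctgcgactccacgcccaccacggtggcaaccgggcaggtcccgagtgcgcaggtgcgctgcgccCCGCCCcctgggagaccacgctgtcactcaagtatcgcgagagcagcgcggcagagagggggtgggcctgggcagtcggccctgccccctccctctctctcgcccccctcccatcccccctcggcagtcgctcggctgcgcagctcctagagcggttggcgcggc
GC boxes were the one motif found in these 4 windows, and the Hnrnpf window held none. Promoter windows were matched for 31 members, all 13 SR genes and 18 of 20 hnRNP genes. The full windows of 300 bases add 50 bases after the start. In them, GGGCGG was present in 12 of 13 SR and 13 of 18 hnRNP promoters, and in 66.1% of the promoters of tested genes. The median GC content of the windows was 68.3% for SR, 61.7% for hnRNP and 61.3% for tested genes. Its part in the motif counts was not tested. CCAAT was present in 5 of 13 SR and 12 of 18 hnRNP promoters, against 39.8%. CACGTG was found in 0 of 13 SR and 4 of 18 hnRNP promoters, against 10.5%. Those 4 were Hnrnpa3 and Hnrnpd, which fell, Hnrnpm, which rose, and Hnrnph2, which did not pass. TATAAA was present in 2 of 13 and 2 of 18 (6.65% of tested genes). TGACGTCA occurred in Tra2a, and in 3.48% of the promoters of tested genes. None of the 5 motifs is contained in another, and a match is a description of the letters only.

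METTL3 methylates adenosines most often within GGACT (written as DNA), so matches to these letters on the transcript strand were counted in 1 principal coding transcript per gene (GENCODE M21, GRCm38). Every match in the coding sequence of these 4 genes is shown with 10 bases on each side and the motif in capitals. Srsf5 has no match anywhere in its transcript. The positions are chr2:162932005-162932029 (plus strand) in Srsf6 and chr6:117924095-117924119 (plus strand) in Hnrnpf. In Hnrnph3 they are chr10:63019427-63019451 and chr10:63018847-63018871 (minus strand).
Srsf6: tggagttcgaGGACTcccgggatgc
Hnrnpf: gaggcttcggGGACTcccatttgga
Hnrnph3, upstream site: gcgacttcgtGGACTgccatttggt
Hnrnph3, downstream site: cattgacgatGGACTaccaggggag
SR transcripts held a median of 0.44 GGACT per kb and hnRNP transcripts 0.74, against 1.04 over 11011 tested protein-coding genes. The called members did not separate by this count. Those that rose had a median of 0.44 per kb (range 0 to 1.49), those that fell 0.73 (0 to 1.65) and those that did not pass 0.64 (0 to 2.58). Methylation was not measured, so a match is not a methylated site.

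In gene structure, SR genes had a median of 6 exons and 801 coding bases in the principal transcript, and hnRNP genes 11 exons and 1306 coding bases. In 11 of 13 SR genes and 10 of 20 hnRNP genes the annotation holds at least 1 transcript marked for nonsense-mediated decay, as in 30.1% of tested protein-coding genes. The table gives 1 value per gene, so such transcripts cannot be told apart from the coding ones in the values that follow.

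Levels per length were set by dividing normalised reads by the summed exon length of each gene in GENCODE M21. On this scale 4 hnRNP genes were highest in DMSO: Hnrnpa1 at 6617 normalised reads per kb, Hnrnpa2b1 at 3731, Hnrnpa3 at 3111 and Hnrnpab at 2880. Hnrnpk followed at 2466. The leading SR gene was Srsf2 at 1783, in the ninth place. Next among SR genes came Srsf5 (1151), Srsf1 (1077), Srsf7 (993) and Srsf6 (808). Srsf4 was lowest of the tested members at 86 per kb, below Hnrnpr (141) and Hnrnph3 (166). The place of Hnrnpr reflects its 22199 annotated exon bases: it averaged 3135 normalised reads in DMSO, and Hnrnph3 523.7 over 3151 bases. Which annotated bases the transcripts of these cells hold is not known, so the order is approximate. The DMSO libraries of 13 of 32 neighbouring pairs in this order overlapped, among them Hnrnpf and Hnrnpa0, Hnrnpc and Srsf2, and Srsf5 and Srsf1. Srsf12 had 0 to 1 read per DMSO library and 0 to 2 after STM2457, was not tested, and lay under the limit of 3 reads that a count of 0 allows.

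**Figure D1:**
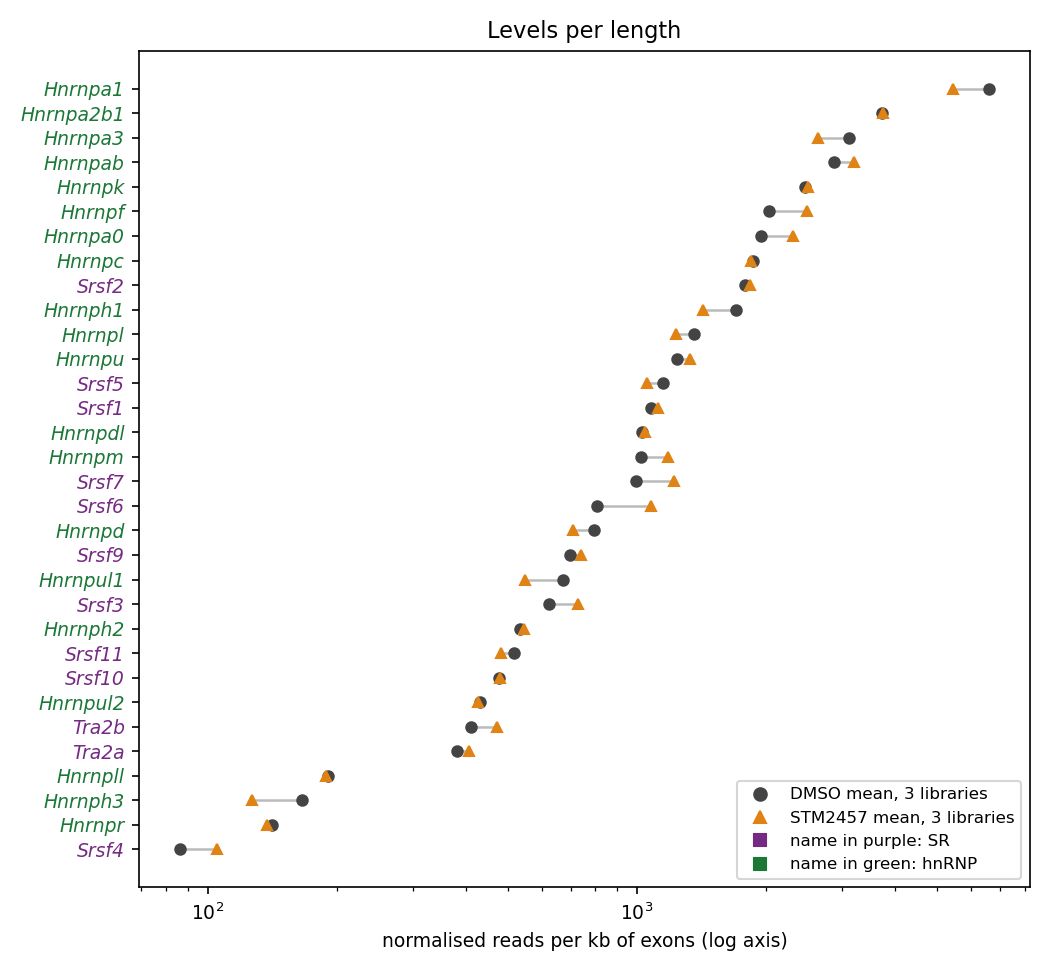
Mean normalised reads per kb of annotated exons (log axis) for the 32 tested members in DMSO (circles) and after STM2457 (triangles), 3 libraries each, ordered by the DMSO level. Hnrnpa1 leads at 6617 per kb in DMSO and 5455 after STM2457, and Srsf4 is last at 86 and 105.

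Among SR genes, Srsf6 rose most. Values are given in the order of replicates 1 to 3, and Srsf6 measured 3979, 3868 and 3814 normalised reads in DMSO and 5325, 5324 and 4868 after STM2457. Its groups did not overlap, and the rise was 1.33-fold (95% interval 1.26 to 1.41, limma adjusted p = 5.1e-09). Srsf6 binds purine-rich exonic enhancers, and its gene lies on chromosome 2 from 162931528 to 162937121.

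Srsf7 and Srsf3, both of which also serve as adaptors for the export of spliced messages, rose less. Srsf7 had 3641, 3498 and 3432 normalised reads in DMSO and 4439, 4301 and 4228 after STM2457, or 1.23-fold (1.16 to 1.29, adjusted p = 4.3e-07). For Srsf3 the values were 5072, 4947 and 4775 in DMSO and 5879, 5911 and 5509 after STM2457, or 1.17-fold (1.11 to 1.23, adjusted p = 2.5e-05). In both genes every STM2457 library lay above every DMSO library. Srsf4, a long SR protein closely related to Srsf5 and Srsf6, gave the fewest reads of the tested members: 311, 305 and 302 in DMSO and 351, 375 and 396 after STM2457. It rose 1.22-fold with a wider interval (1.10 to 1.35, adjusted p = 0.0014).

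The Tra2 proteins, SR-like activators with an arginine-serine stretch at each end, both rose. Tra2b had 3663, 3973 and 3736 normalised reads in DMSO and 4448, 4466 and 4168 after STM2457, a 1.15-fold rise (1.09 to 1.22, adjusted p = 0.00015). Tra2a moved less, from 2666, 2542 and 2713 to 2847, 2802 and 2815, or 1.07-fold (1.01 to 1.13, adjusted p = 0.038). The Tra2a call was lost with upper-quartile centring (adjusted p = 0.48), without DMSO replicate 2 (0.13) and without STM2457 replicate 1 (0.12), 2 (0.082) or 3 (0.079). It was also lost with no filter on low values (0.082) and with no variance trend or robust priors (0.072).

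Srsf5 and Srsf11 were the SR genes that fell. Srsf5 had 4920, 4547 and 4298 normalised reads in DMSO and 4332, 4078 and 4178 after STM2457, so that the groups overlapped. Its level was 0.916 of DMSO (0.861 to 0.974, adjusted p = 0.016). Without DMSO replicate 1, its highest library, the adjusted p was 0.11, and it was also above the threshold without STM2457 replicate 2 (0.097) or 3 (0.055) and with no variance trend or robust priors (0.057). Srsf11, an SR-related protein that contacts the factor at the 3′ splice site, measured 4476, 4317 and 4314 in DMSO and 4027, 4037 and 4170 after STM2457, with no overlap (0.933 of DMSO, 0.886 to 0.983, adjusted p = 0.024). The Srsf11 call did not survive leaving out DMSO replicate 1 (0.065) or STM2457 replicate 1 or 2 (0.096 each), nor dropping the filter on low values (0.051) or the variance trend and robust priors (0.056).

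The remaining 4 tested SR genes did not pass. Srsf1, the founding SR protein, gave 1.04-fold (95% interval 0.986 to 1.10) and Srsf2, which stays in the nucleus, 1.03-fold (0.975 to 1.09). Srsf10, a repressor when dephosphorylated, gave 1.01-fold (0.957 to 1.06). Srsf9 gave 1.07-fold (0.999 to 1.14, adjusted p = 0.093), although its STM2457 libraries (1250, 1251 and 1180) all lay above its DMSO libraries (1178, 1118 and 1159).

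**Figure D2:**
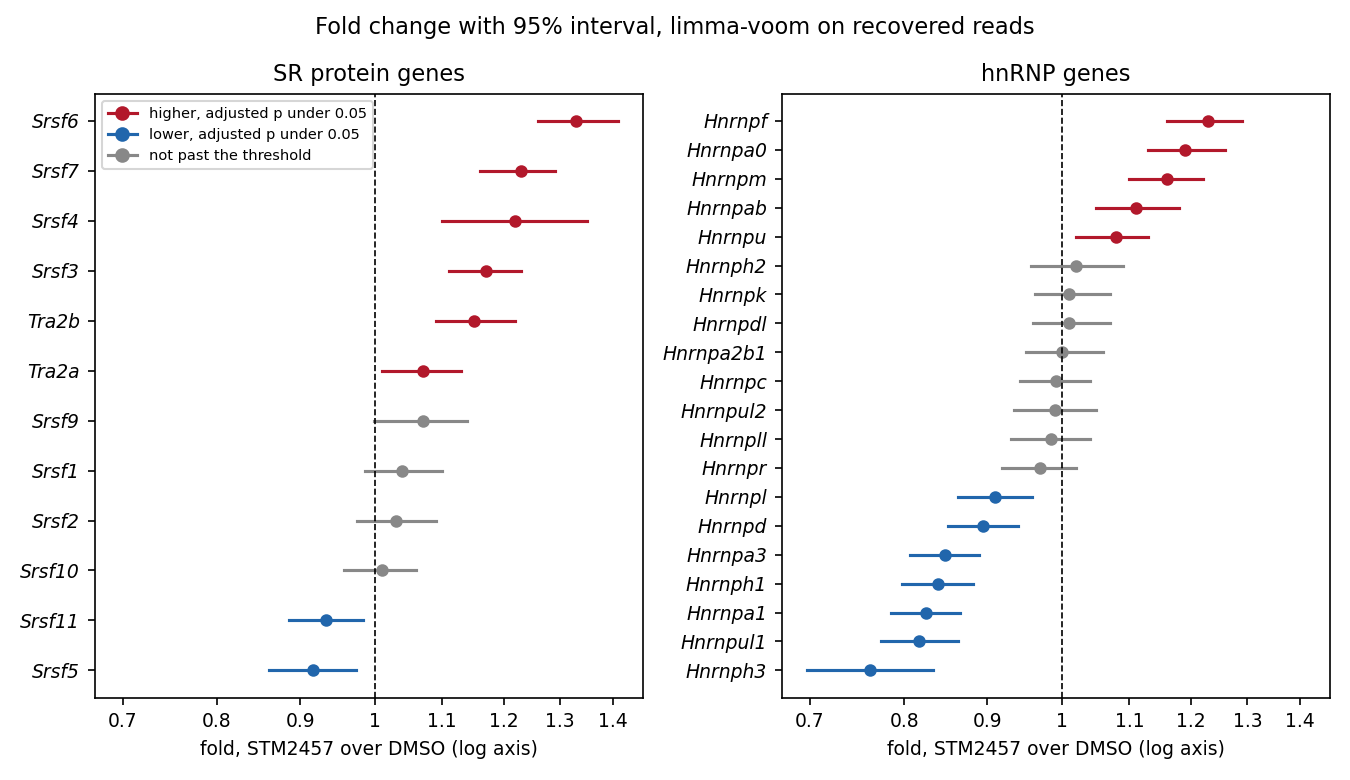
Fold of STM2457 over DMSO (log axis) for 12 SR and 20 hnRNP genes with 95% intervals from limma-voom on the recovered reads, coloured by the limma call. SR genes run from 0.916 (Srsf5) to 1.33 (Srsf6) and hnRNP genes from 0.762 (Hnrnph3) to 1.23 (Hnrnpf).

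Among hnRNPs, members of the A/B type differed in direction. Hnrnpa1, a repressor that binds silencers in exons and introns and is the most abundant member per length, had 21591, 20495 and 20501 normalised reads in DMSO and 17153, 17006 and 17437 after STM2457. It fell to 0.825 of DMSO (0.785 to 0.866, adjusted p = 4.7e-07). Its close relative Hnrnpa3 fell from 17189, 16794 and 16378 to 14230, 14352 and 14069 (0.847, interval 0.807 to 0.889, adjusted p = 3.5e-06). For both genes all STM2457 libraries lay below all DMSO libraries. Hnrnpa0, a binder of AU-rich elements, went the other way, from 5103, 5147 and 5371 to 6244, 6439 and 5906, or 1.19-fold (1.13 to 1.26, adjusted p = 7.1e-06).

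Hnrnpab rose from 8396, 7602 and 8037 to 9076, 9077 and 8623 normalised reads, or 1.11-fold (1.05 to 1.18, adjusted p = 0.0017). Hnrnpd, whose protein promotes decay of messages with AU-rich elements, fell from 5886, 5722 and 5876 to 5222, 5253 and 5160 (0.894, interval 0.851 to 0.940, adjusted p = 0.00046). Its paralogue Hnrnpdl did not pass, at 1.01-fold (0.960 to 1.07). Hnrnpa2b1, described as an m6A reader, had 26139, 23893 and 23662 normalised reads in DMSO and 24496, 24179 and 25209 after STM2457. Those groups overlapped, and the interval of its fold was 0.951 to 1.06 (adjusted p = 0.93).

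The F/H type binds runs of G. Among genes with an Hnrnp symbol, it includes those with the largest fall and the largest rise. Hnrnph3 fell from 523, 548 and 500 to 399, 403 and 393 normalised reads, to 0.762 of DMSO (0.697 to 0.833, adjusted p = 9.1e-06). Hnrnph1 fell from 10195, 9841 and 9763 to 8360, 8176 and 8471 (0.839, interval 0.798 to 0.882, adjusted p = 2e-06). Hnrnpf rose from 6428, 6078 and 6077 to 7615, 7565 and 7579, or 1.23-fold (1.16 to 1.29, adjusted p = 2.8e-07). All 3 had groups apart. Hnrnph2 did not pass, at 2508, 2198 and 2306 in DMSO and 2329, 2376 and 2434 after STM2457 (1.02-fold, 0.957 to 1.09). Hnrnph3 lies on chromosome 10 from 63014664 to 63024217 and Hnrnpf on chromosome 6 from 117900324 to 117925622.

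In the U type, whose proteins bind RNA through glycine-rich repeats, Hnrnpul1 fell and Hnrnpu rose. Hnrnpul1 measured 5585, 6085 and 5776 normalised reads in DMSO and 4646, 4839 and 4765 after STM2457 (0.817 of DMSO, 0.774 to 0.863, adjusted p = 6.8e-07). Hnrnpu, a scaffold attachment factor, had 14883, 14233 and 13965 in DMSO and 15319, 15720 and 15277 after STM2457 (1.08-fold, 1.02 to 1.13, adjusted p = 0.017). The Hnrnpu call was lost with upper-quartile centring (adjusted p = 0.30), without DMSO replicate 3 (0.094) and without STM2457 replicate 2 (0.099). Hnrnpul2 did not pass (0.990 of DMSO, 0.934 to 1.05).

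Hnrnpm, an hnRNP known for its part in splicing during epithelial-mesenchymal transition, rose from 8314, 8145 and 7882 to 9320, 9548 and 9291 normalised reads, or 1.16-fold (1.10 to 1.22, adjusted p = 2.6e-05). Hnrnpl, which binds CA repeats, fell from 8266, 7871 and 8104 to 7559, 7456 and 7045 (0.910, interval 0.863 to 0.959, adjusted p = 0.0037). Neither gene's groups overlapped. Its relative Hnrnpll did not pass, at 0.985 of DMSO (0.931 to 1.04), nor did Hnrnpr at 0.969 (0.919 to 1.02). With upper-quartile centring these were called lower, with adjusted p = 0.049 for Hnrnpll and 0.014 for Hnrnpr.

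Hnrnpk, a KH-domain protein that binds C-rich stretches, and Hnrnpc, which binds U tracts that m6A can expose, did not pass. Hnrnpk had 16517, 15145 and 16181 normalised reads in DMSO and 16122, 15862 and 16500 after STM2457 (1.01-fold, 0.963 to 1.07). For Hnrnpc the values were 8282, 7842 and 7962, then 8077, 7926 and 7868 (0.991, interval 0.942 to 1.04). In both genes the groups overlapped.

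**Figure D3:**
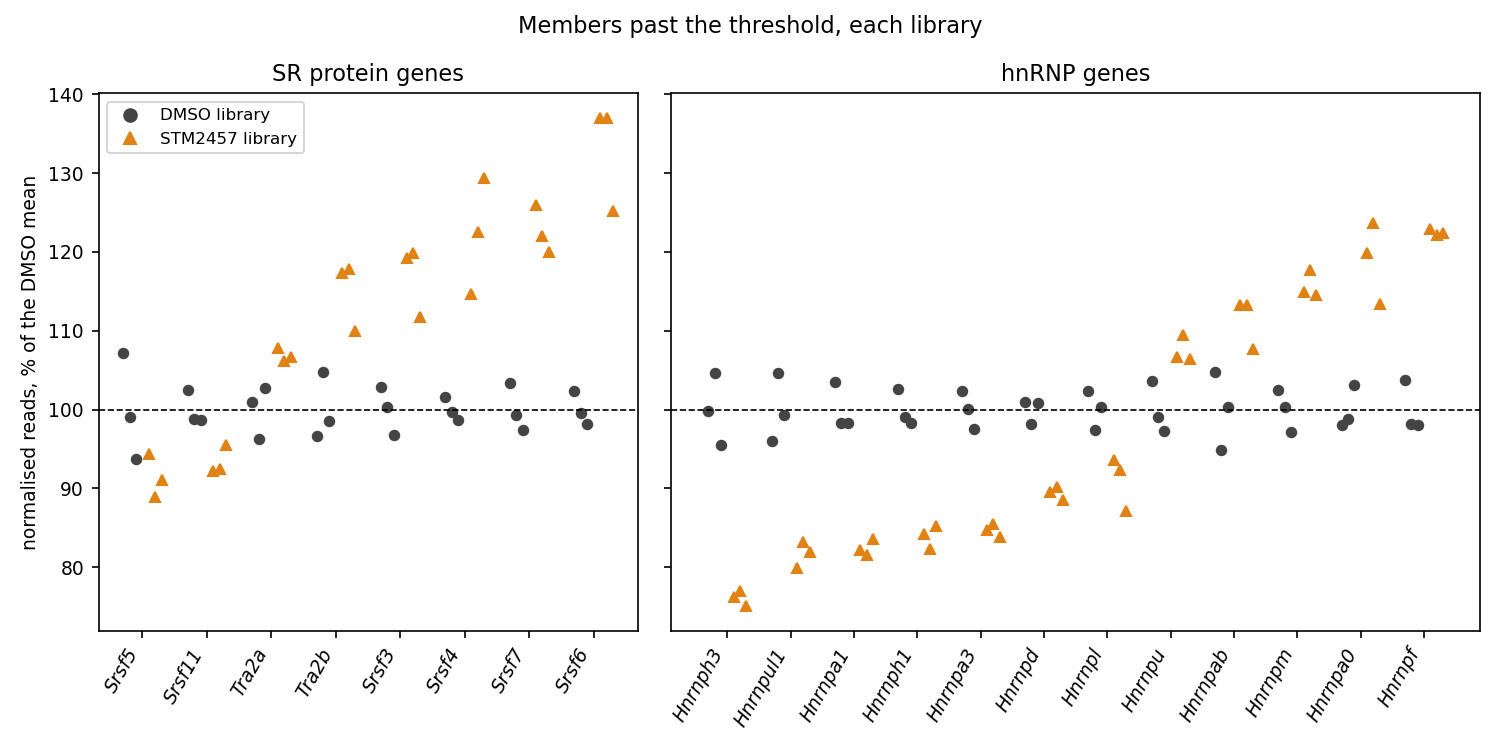
Normalised reads of each library as a percentage of the DMSO mean, for the 8 SR and 12 hnRNP genes past the threshold (circles DMSO, triangles STM2457, 3 libraries each). The groups overlap in Srsf5 and in none of the other 19 genes shown.

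Counted by separation, all STM2457 libraries lay above all DMSO libraries in 7 of 12 SR and 5 of 20 hnRNP genes, against 33.4% of all tested genes. They lay below in 1 of 12 SR and 7 of 20 hnRNP genes, against 28.4%. Of the 20 called members, 16 kept their call and direction in all 12 alternative fits (5 SR and 11 hnRNP genes); the exceptions were Srsf5, Srsf11, Tra2a and Hnrnpu. DMSO replicate 1 was the highest DMSO library in 10 of 12 SR and 16 of 20 hnRNP genes. Over all 12 and 20 genes, its deposited log2 value exceeded the mean of the other DMSO libraries by a median of 0.03 and 0.04. The same median over all tested genes was 0.0. The part of DMSO replicate 1 in the results was not tested beyond leaving it out, which moved the hnRNP median log2 difference from -0.008 to 0.012.

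Summed over the family, SR genes had 45145, 43907 and 42786 normalised reads in DMSO and 48290, 47781 and 46438 after STM2457, so that the mean was 1.08 times that of DMSO. hnRNP genes summed to 179534, 170811 and 171600 in DMSO and 169659, 169258 and 169314 after STM2457, 0.974 of DMSO. DMSO replicate 1 carried most of that fall: the hnRNP sum fell by 4571 reads with all libraries and fell by 1795 without that library, to 0.990 of DMSO. The ratio of hnRNP to SR reads was 3.98, 3.89 and 4.01 in DMSO and 3.51, 3.54 and 3.65 after STM2457. The groups did not overlap in any of these sums or in the ratio. The sums were not recomputed with upper-quartile centring, which moved the median log2 difference of all tested genes from 0.004 to -0.034. The size of the change in each sum may therefore depend on the scaling. The sums weight each gene by its reads, and the falls of Hnrnpa1 and Hnrnpa3 together exceed the net fall of the hnRNP sum. No test was made on them, because the members were chosen with earlier results of these data known. In bulk RNA, fewer cells of a kind and less RNA per cell cannot be told apart.

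**Figure D4:**
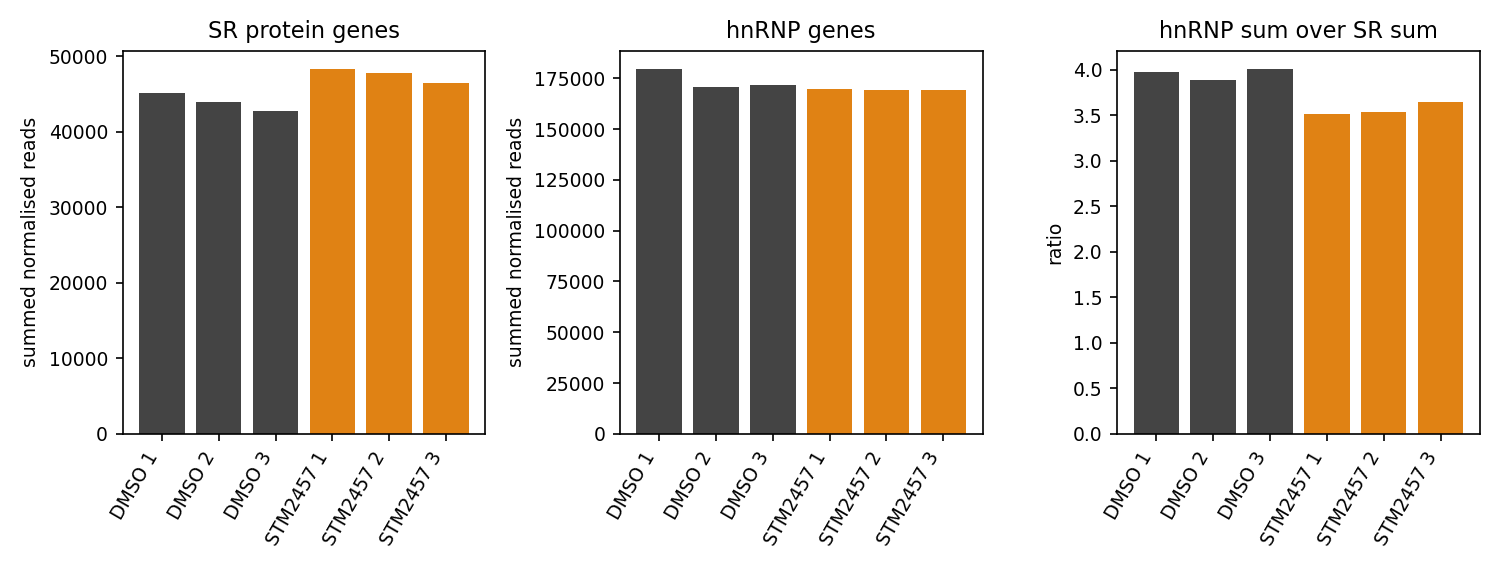
Summed normalised reads of 13 SR and 20 hnRNP genes, and the ratio of the sums, per library (bars start at 0). SR sums are higher after STM2457, hnRNP sums slightly lower, and the ratio lies at 3.89 to 4.01 in DMSO and 3.51 to 3.65 after STM2457.

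The enzymes that phosphorylate SR proteins and the importins that carry both families into the nucleus split in direction. Of 11 tested, 4 rose and 5 fell, with a median of 0.960 of DMSO. Over all tested genes 30.7% were called higher and 25.7% lower, the background for this and the following lists. The nuclear kinase gene Clk1 fell to 0.743 of DMSO (0.702 to 0.787), from 2479, 2619 and 2556 to 1915, 1845 and 1927 normalised reads. Clk3 (0.740) and Clk4 (0.761) also fell. Srpk1, the mainly cytoplasmic kinase that primes SR proteins for import, rose 1.27-fold (1.21 to 1.34), from 3472, 3402 and 3378 to 4323, 4293 and 4454. For these 4 genes the limma adjusted p ran from 2.4e-09 (Clk1) to 8.5e-07 (Clk4).

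Of 31 other genes for RS-domain and SR-related proteins, 13 rose and 9 fell (median 1.03-fold). Luc7l, a relative of a yeast U1 snRNP protein, fell to 0.627 of DMSO (0.594 to 0.663), from 2547, 2621 and 2556 to 1608, 1621 and 1616. That is a larger change than in any SR or hnRNP gene. Rsrp1 (0.703) and Arglu1 (0.750) also fell, and Rnps1, a component of the complex left at exon junctions, rose 1.36-fold. Adjusted p-values of the 4 ran from 8.3e-13 (Luc7l) to 3.4e-09 (Arglu1).

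Of 19 hnRNPs under other symbols and related proteins, 6 rose and 6 fell (median 1.01-fold). The poly(C)-binding protein gene Pcbp1 rose 1.40-fold, from 5999, 5581 and 6162 to 8200, 8621 and 7943 normalised reads (adjusted p = 7.3e-10). Taf15 fell to 0.760 (9.1e-08). Rbmx, which encodes hnRNP G, fell to 0.708 of DMSO (3.3e-07) while its retrocopy Rbmxl1 rose 1.40-fold (3.4e-08); these near-identical genes may share reads, so both values are uncertain.

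In the core spliceosome 24 of 57 genes rose and 12 fell (median 1.03-fold), with the U2 snRNP genes Sf3b4 at 1.64-fold and Phf5a at 1.35-fold, Bud31 at 1.38-fold and Sf3b1 at 0.803. Among 26 other regulators of alternative splicing 6 rose and 12 fell (median 0.899 of DMSO). Celf4 fell to 0.721, Tia1 to 0.784 and Nova2 to 0.479, and Rbm38 rose 1.43-fold. The Nova2 fold is less precise (95% interval 0.379 to 0.605), from means of 86 normalised reads in DMSO and 41 after STM2457. Adjusted p-values of these 8 genes ran from 7.3e-12 (Sf3b4) to 1.1e-06 (Nova2). The lists were compared with all tested genes only by their counts, and the share called over all tested genes was 30.7% higher and 25.7% lower.

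Some values are uncertain because exons overlap another gene and it is not known whether the counting used strand. Genes on the other strand cover 43.0% of the exon bases of Srsf4 (Gm12992), 29.1% of Hnrnpab (Phykpl), 26.5% of Hnrnpf and 25.3% of Srsf2. On the same strand, March2 covers 14.7% of Hnrnpm. Genes of both families, Hnrnpa1 above all, have many processed copies in the genome with which reads may have been shared. The 4 pseudogene symbols left out by the rule held at most 5 reads in any library (Srsf3-ps). Copies under other symbols were not looked up, so these counts do not show how many reads were shared.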

How the data were processed

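GRCm38 is the genome build in the submitters' processing notes, which name HISAT2 2.2.1, DESeq2, FastQC 0.11.9 and featureCounts 2.0.1 (Subread). For the counting annotation, the use of strand and the transform, nothing is given in the sources used here. The authors deposited log2 values by gene symbol for the 6 libraries. Of 55367 rows, 31229 are listed at 0 throughout. From the values, they are regularised log2 values, in which differences between libraries are shrunken, and at high counts 60.0% of a log2 difference is kept. That transform was inverted to recover reads (penalty 60.2, dispersion 1.90 over the mean plus 0.0111, size factors 0.995 to 1.009). Whole numbers, to within 0.05 reads, came back for 98.9% of values in 17546 genes below a mean of 500 reads, and for 53.5% from 2000 reads, where most members lie. Normalised reads are rounded recovered reads over the size factor.

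The design assumed log2 values or counts, and the unit found was log2. Limma 3.58.1 in R 4.3.3 (trend and robust priors, statmod 1.5.0) was fitted with group as the only term to the 12618 genes whose deposited values averaged no less than the log2 of 10, with Benjamini-Hochberg adjustment over all of them and a threshold of 0.05, two-sided. Folds and their 95% intervals come from limma-voom on the recovered reads. On simulated data for STM2457 against DMSO (12618 genes), limma found 95 of 100 genes given a log2 fold of 1 and 68 of 100 given 0.3, and called 13 of 12418 unchanged genes. The simulation gave all genes the same fixed dispersion and changed far fewer genes than were called in the data. Its rates may therefore not hold for the data. All members are named. From each of the other lists up to 4 genes of smallest p among those called are named. Members and lists were chosen with earlier results of these data known. Other scalings, filters, variance models, limma-voom calls, a replicate block and leaving out each library were tried as alternatives. Promoter windows come from RefSeq (GRCm38.p6), transcripts and gene positions from GENCODE M21 (GRCm38). Intervals and the limit of 3 reads for a count of 0 cover counting error and the spread between these libraries only.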

Additional observations from a re-analysis of the deposited data

How the results depend on the processing

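No member changed sign in a call under any of the 12 alternatives. The 2 SR genes called lower became 1 when low genes were not filtered out and 0 without a variance trend and robust priors (2 at an unadjusted p under 0.05 by limma in that fit, and 2 by limma-voom). Leaving out 1 library gave 0 to 2, with 0 without DMSO replicate 1 (1 unadjusted) or STM2457 replicate 2 (0 unadjusted). SR genes called higher stayed at 5 to 6, hnRNP genes called higher at 4 to 5 and lower at 7 to 9. The SR median log2 difference of 0.053 was 0.015 with upper-quartile centring and 0.094 by limma-voom on recovered reads, a scale without shrinkage; it ranged from 0.039 to 0.061 when 1 library was left out. The hnRNP median of -0.008 was -0.046 with upper-quartile centring and ranged from -0.016 to 0.012 when 1 library was left out, with the change of sign without DMSO replicate 1. That centring moved the median of all tested genes from 0.004 to -0.034.

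With the replicate number as a block, 6 SR genes were higher and 2 lower, 5 hnRNP genes higher and 7 lower, and 3864 and 3226 genes overall; the medians were 0.053 and -0.008. The numbers do not pair the libraries in the labels, and deviations of same-numbered libraries correlated at 0.05, 0.01 and 0.04. Low counts left Srsf12 untested and limit the precision for Srsf4 and Hnrnph3. Leaving out each library in turn for the summed reads, an alternative chosen after seeing the data, gave 1.07 to 1.10 for SR and 0.965 to 0.990 for hnRNP genes.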
